A study of Homo sapiens with 12 samples.

Results

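HepG2C3A cells that had been exposed to acetaminophen were compared between a culture microsystem and Petri dishes. The comparison rests on 6 of the series' 12 arrays, 3 of treated cells in the microsystem and 3 of treated cells in Petri dishes, and was described over the 13199 genes that passed a filter on dim probe sets, of 18404 genes with a named probe set. The other 6 arrays, 3 of untreated cells in each culture, gave the same culture comparison without the drug, so that culture differences found under the drug could be set beside those found without it.

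HepG2C3A is a human line derived from a liver tumour that keeps many hepatocyte functions, such as albumin secretion. All 4 groups shared this line and a culture of 96 h, and the treated groups received acetaminophen during 72 h of it. The labels call the microsystem only by that name, and they state no dose. Total RNA was taken after trypsin treatment of the cells and hybridised to Affymetrix Human Gene 1.0 ST arrays, which carry several short probes along each transcript. Since no label states that the replicates are separate cultures, the p-values below speak of the spread between these arrays alone, and that spread may be technical. In total RNA from a culture, a change in the share of cells that express a gene and a change in RNA per cell cannot be told apart. With 3 arrays against 3, the smallest two-sided p of an exact permutation test for a single gene is 0.1, so all gene calls come from the model fitted across genes.

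As background, hepatocytes clear acetaminophen mainly by glucuronidation and sulfation, and cytochromes P450 turn a part of it into a reactive quinone imine that glutathione captures. Cells meet such electrophiles through NRF2, a transcription factor that induces glutathione synthesis and quinone reduction. They meet low oxygen through the hypoxia-inducible factors, which induce glycolysis, angiogenic factors and their own prolyl hydroxylases, and they meet a shortage of sterols through SREBP2, which induces the enzymes of cholesterol synthesis. Planar aromatic ligands act through the aryl hydrocarbon receptor, whose best known target is CYP1A1.

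The medians of the 12 arrays lay between 5.556 and 5.629 on the log2 scale over 32321 probe sets. Treated arrays correlated with r between 0.9877 and 0.9960 within a culture and between 0.9477 and 0.9585 across cultures. On principal component 1 (63.7% of the variance) the cultures separated, and on component 2 (14.4%) treated arrays separated from controls. Component 3 (6.77%) set both microsystem arrays numbered 3 apart, at -17.2 in control and -13.9 in treated cells. Leaving out both gave 5307 genes that differed between cultures under the drug, against 5467 with them. The 9 hepatocyte markers on the array all stood above the 40th percentile of every treated array, whereas none of 7 endothelial markers did on any. Of 8 fibroblast markers, COL1A1, COL1A2, COL3A1 and PDGFRB were above it on all 6 treated arrays, DCN, LUM and PDGFRA on none and THY1 on 1, and none of the 4 that were tested passed the test. Of 7 leukocyte markers, LYZ, CD68 and CD14 were above it on all 6, and PTPRC, CD163, CSF1R and ITGAM on none. Mean log2 levels of the hepatocyte list were 11.38 to 11.52 in the microsystem and 11.49 to 11.68 in Petri dishes, and those of the leukocyte list 5.83 to 5.91 and 6.05 to 6.14. CD68, a lysosomal glycoprotein of macrophages that other cells also make, differed by -1.21 (log2, microsystem minus Petri dishes), CD14, the lipopolysaccharide coreceptor, by -0.66 and LYZ, lysozyme, by 0.39 in the opposite direction (limma adjusted p = 0.00277). The part of these markers in the results was not tested. The mean of the 8 fibroblast markers was 4.41 to 4.54 in the microsystem and 4.44 to 4.48 in Petri dishes, and that of the endothelial markers 3.64 to 3.74 and 3.67 to 3.76.

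In treated cells, 5467 genes differed between the cultures at an adjusted p under 0.05 (limma, Benjamini-Hochberg), which is 41.4% of those tested. Of these, 2977 were higher in the microsystem (22.6% of genes tested) and 2490 were lower (18.9%), and the median of all genes tested was -0.001. These shares and that median are the background against which each gene group below is read. Most differences were small, with a median size of 0.49 (log2) among the genes called. At least 2-fold differences were found for 326 higher and 245 lower genes, at least 4-fold ones for 25 and 18, and at least 8-fold ones for 4 and 2. The groups of 3 treated arrays did not overlap for 6986 genes, or 52.9%. Below, array values are log2 intensities in the order of replicates 1, 2 and 3, a difference is the microsystem minus Petri dishes on the log2 scale with the standard error of the fit (n = 3 arrays a group), and adjusted p-values are limma's.

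CYP1A1, the monooxygenase that marks aryl hydrocarbon receptor activity, was the gene with the largest difference among those tested. Its treated microsystem arrays read 11.20, 11.24 and 11.49 and its treated Petri arrays 5.78, 6.15 and 6.25, a difference of 5.25 ± 0.13, or 38.1-fold (adjusted p = 4.98e-11). In control cells the difference was 5.85 (57.9-fold). Both pairs of groups lay far apart, and the Petri arrays were higher with the drug than without it, at 5.43, 5.11 and 5.54 in controls. The 250 bases upstream of the RefSeq start of CYP1A1 (GRCh38.p14, chr15:74725529-74725778, minus strand) are printed in the direction of the gene because this gene led the comparison. Capitals mark GCGTG, the core bound by the aryl hydrocarbon receptor, searched on both strands.
CYP1A1 promoter: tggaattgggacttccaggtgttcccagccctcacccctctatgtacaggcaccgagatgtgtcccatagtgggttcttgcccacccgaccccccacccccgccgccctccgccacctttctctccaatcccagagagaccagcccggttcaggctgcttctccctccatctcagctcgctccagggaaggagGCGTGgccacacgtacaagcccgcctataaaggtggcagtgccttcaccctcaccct
The motif occurred once there, with its first base 57 bases before the start. GCGTG is common, being present in 32.2% of all 35116 RefSeq windows of this length and in 42.5% of the 14836 windows of tested genes, and a match is no more than a run of letters.

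**Figure D1:**
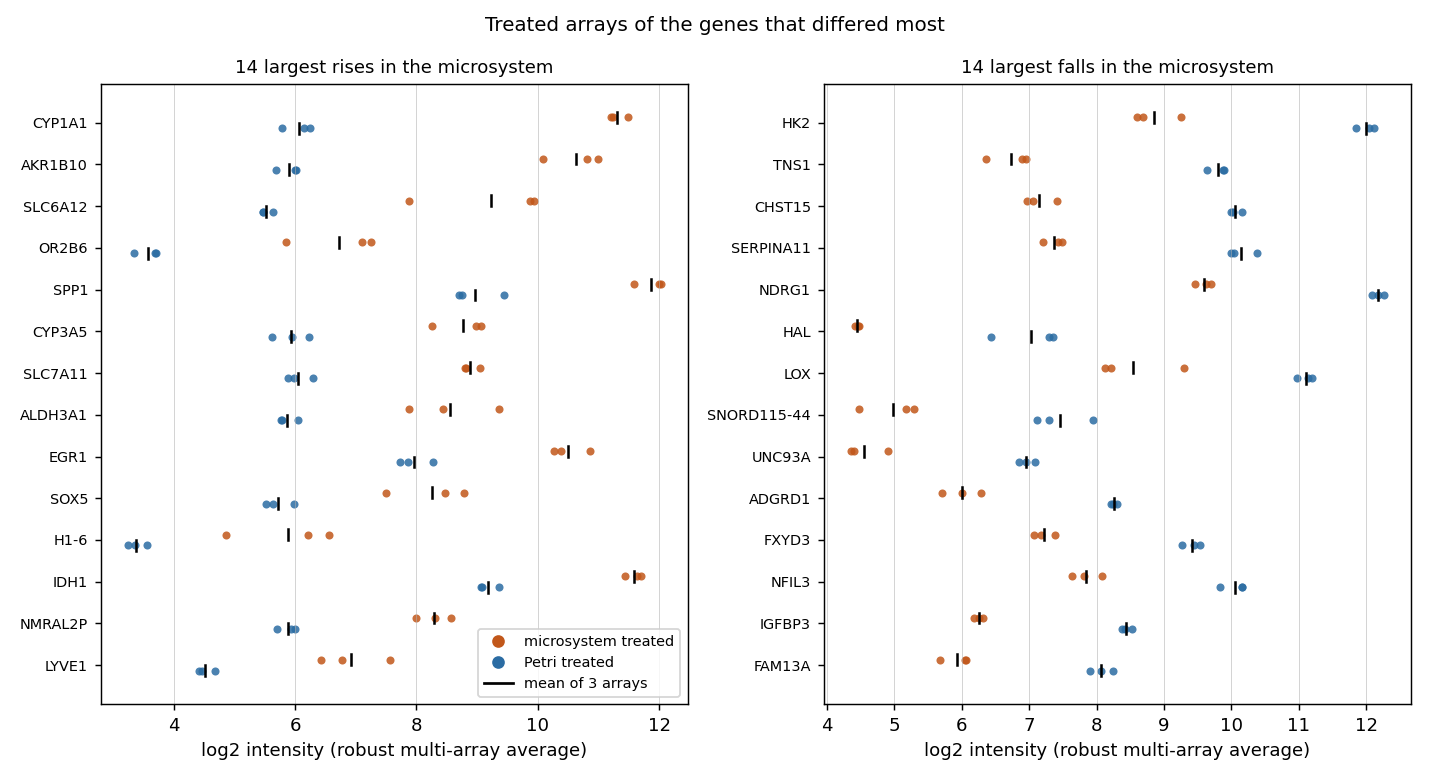
Log2 intensities (x axis) of the 14 genes with the largest rises (left) and the 14 with the largest falls (right) in treated cells, 1 dot per array with a black bar at the mean of 3. For every gene shown the 3 microsystem arrays and the 3 Petri arrays do not overlap, which the rule for choosing them required.

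AKR1B10, an aldo-keto reductase that reduces reactive aldehydes, came next. It averaged 10.64 ± 0.48 (SD, lowest array 10.09) in the microsystem and 5.91 ± 0.18 (highest array 6.02) in Petri dishes (4.73 ± 0.25, 26.6-fold, adjusted p = 3.76e-08), and 5.44 was its control difference. The lowest microsystem array was number 3, and still stood more than 4 log2 units above every Petri array. SLC6A12, the betaine transporter of the osmotic response, read 9.88, 9.94 and 7.88 against 5.64, 5.48 and 5.47 (3.70 ± 0.63, adjusted p = 0.000422), and 4.38 without both microsystem arrays numbered 3. SPP1, the secreted phosphoprotein osteopontin, read 12.00, 12.03 and 11.59 against 9.45, 8.76 and 8.71 (2.90 ± 0.20).

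The remaining large rises came from several pathways. SLC7A11, the cystine importer that supplies glutathione synthesis, differed by 2.83 ± 0.25, CYP3A5 by 2.84 ± 0.30, ALDH3A1, an aldehyde dehydrogenase, by 2.69 ± 0.31, and EGR1, an immediate early transcription factor, by 2.55 ± 0.21. IDH1, the cytosolic isocitrate dehydrogenase that makes NADPH, read 11.70, 11.64 and 11.44 against 9.09, 9.37 and 9.06 (2.42 ± 0.12). SOX5, H1-6, LYVE1 and OR2B6 were also among the 14, with differences of 2.54, 2.50, 2.40 and 3.15. Each of these last 4 was lowest on microsystem array 3, and leaving out both arrays of that number gave 2.92, 3.01, 2.65 and 3.60. The Petri values of OR2B6, H1-6 and LYVE1 were dim, below the 40th percentile of each Petri array, and H1-6 belongs to the histone family, whose members are alike enough for probes to share signal.

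Among genes lower in the microsystem, HK2, the hexokinase that traps glucose, had the largest fall. It read 8.60, 8.69 and 9.25 in the microsystem and 11.84, 12.04 and 12.12 in Petri dishes, a difference of -3.15 ± 0.17 (8.9-fold lower, adjusted p = 4.47e-08), and its control difference was -2.55. TNS1, the focal adhesion protein tensin 1, followed with 6.36, 6.89 and 6.95 against 9.87, 9.63 and 9.89 (-3.07 ± 0.18). SERPINA11, a serpin made by liver, read 7.20, 7.43 and 7.49 against 10.38, 10.04 and 9.99 (-2.77 ± 0.12). Every one of these 3 genes showed a gap of over 2 log2 units between the highest microsystem and the lowest Petri array.

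CHST15, a sulfotransferase of chondroitin sulfate (-2.91 ± 0.14), LOX, which crosslinks collagen (-2.56 ± 0.26), and UNC93A (-2.41 ± 0.23) were also among the 14. HAL, the histidine ammonia-lyase of amino acid breakdown, read 4.47, 4.41 and 4.46 in the microsystem, under the 40th percentile of those arrays, and 6.44, 7.36 and 7.29 in Petri dishes (-2.58 ± 0.18). Its treated Petri arrays by themselves met the filter, so this difference is set against dim values. IGFBP3, a carrier of insulin-like growth factors, was the tightest of the large falls, with 6.26, 6.18 and 6.31 against 8.37, 8.42 and 8.52 (-2.19 ± 0.09, adjusted p = 8.57e-09). SNORD115-44, a small nucleolar RNA from a cluster of near-identical copies, is uncertain for that reason (-2.47).

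The most uniform group was that of hypoxia-inducible factor targets. All 27 tested members, of 29 listed, were lower in the microsystem under the drug, where 18.9% of all genes were, with a median of -1.22 against -0.001 overall. In control cells 26 of the 27 were lower, with a median of -1.24, against a background of 18.3%. VEGFA, the angiogenic growth factor, read 9.12, 9.20 and 8.81 in the treated microsystem and 10.87, 10.96 and 11.04 in treated Petri dishes (-1.92 ± 0.14). EGLN3, a prolyl hydroxylase that marks the factors for degradation, read 7.35, 7.10 and 7.40 against 9.13, 9.15 and 9.28 (-1.90 ± 0.10). NDRG1, a stress-responsive gene of growth arrest and differentiation, read 9.69, 9.62 and 9.46 against 12.09, 12.17 and 12.26 (-2.59 ± 0.17). No array of one culture entered the range of the other in any of these 3. CA12 had the smallest difference of the list at -0.24, and SLC2A1, the common glucose transporter, differed by only -0.58. Leaving out single arrays left 23 to 27 members called, and 16 passed a test against a minimum of 1.5-fold.

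ANKRD37 and BHLHE40 stand for the group's sequences, since both are hypoxia targets with the core ACGTG in several copies upstream. ANKRD37 read 6.55, 6.19 and 6.27 in the microsystem and 7.78, 8.31 and 8.78 in Petri dishes (-1.96 ± 0.26). BHLHE40, a transcriptional repressor that also feeds into the circadian clock, averaged 9.95 ± 0.05 (SD) in the microsystem and 10.94 ± 0.39 in Petri dishes (-0.99 ± 0.18). The windows are the 250 bases before the RefSeq start in GRCh38.p14, chr4:185396591-185396840 on the plus strand for ANKRD37 and chr3:4979187-4979436 on the plus strand for BHLHE40. Capitals mark ACGTG on either strand, and neighbouring matches that overlap are merged, so that the palindrome CACGTG counts once on each strand.
ANKRD37 promoter: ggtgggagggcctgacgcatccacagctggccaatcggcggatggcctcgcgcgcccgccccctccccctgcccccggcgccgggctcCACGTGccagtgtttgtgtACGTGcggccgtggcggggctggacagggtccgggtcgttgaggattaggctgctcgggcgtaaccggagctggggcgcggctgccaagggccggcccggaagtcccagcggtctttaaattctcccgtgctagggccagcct
BHLHE40 promoter: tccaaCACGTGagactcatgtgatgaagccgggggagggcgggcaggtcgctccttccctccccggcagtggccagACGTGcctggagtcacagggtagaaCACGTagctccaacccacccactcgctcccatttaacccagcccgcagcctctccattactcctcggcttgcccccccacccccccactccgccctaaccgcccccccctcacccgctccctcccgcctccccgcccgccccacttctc
ANKRD37 held 3 matches and BHLHE40 held 4. Of the 27 members, 23 had at least 1 RefSeq window, and 18 of their 32 windows (56.2%) held ACGTG, in 14 genes, where 18.5% of all windows and 21.8% of the windows of tested genes did. This is a count of letters and was not read as binding.

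**Figure D2:**
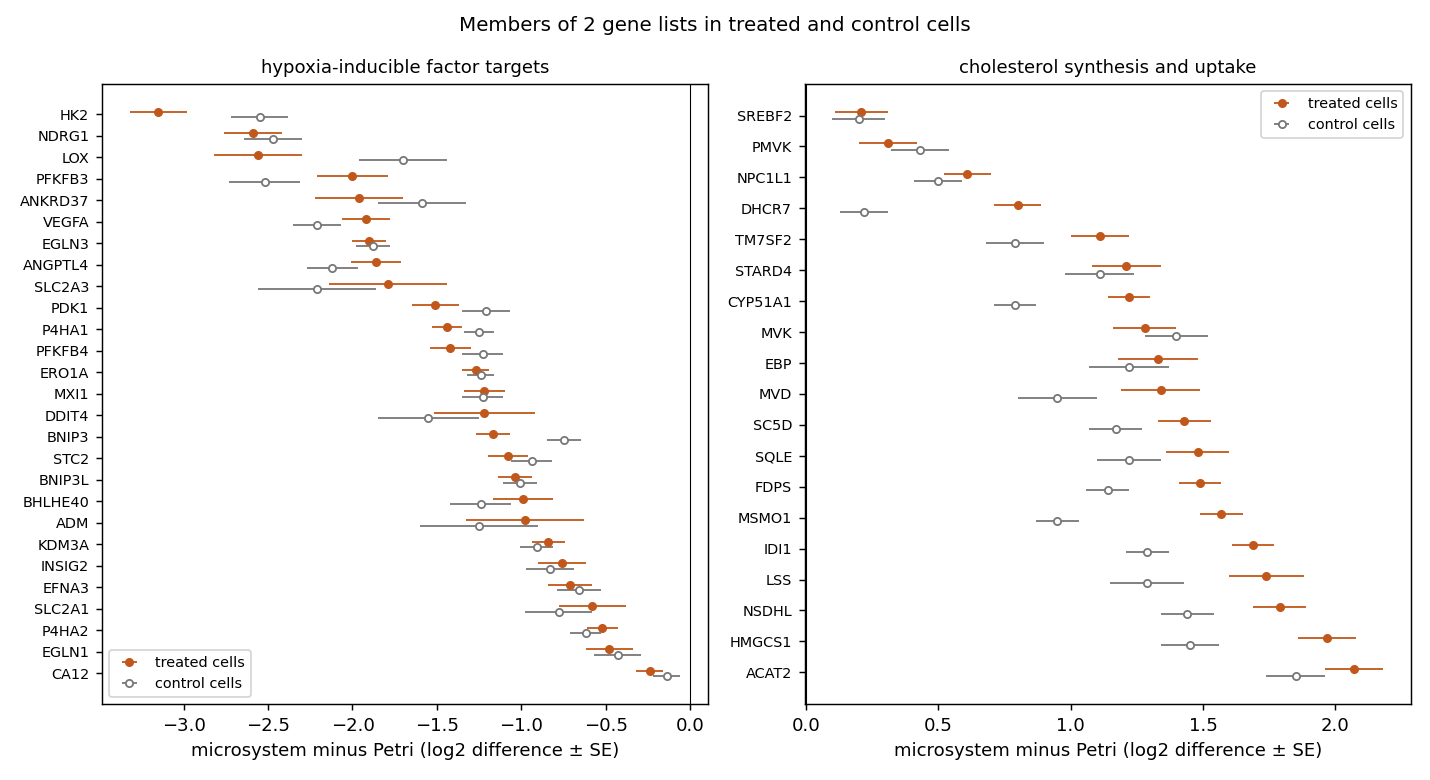
Culture difference (microsystem minus Petri dishes, log2, with the standard error of the fit) of the 27 tested hypoxia-inducible factor targets (left) and the 19 tested cholesterol genes (right), in treated cells (filled) and control cells (open). Every treated point on the left lies below 0, and 18 of 19 on the right passed the test as higher, the exception being SREBF2.

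Glycolysis and gluconeogenesis genes were lower for 13 of 26 tested members and higher for 4 (median -0.25). HK2 and SLC2A3, a glucose transporter, count in the hypoxia list as well. ENO2, an enolase, read 9.32, 9.47 and 9.24 in the microsystem and 10.71, 10.85 and 10.97 in Petri dishes (-1.50 ± 0.12). PGK1, phosphoglycerate kinase, read 10.27, 10.12 and 10.47 against 11.27, 11.38 and 11.37 (-1.06 ± 0.10). GAPDH differed less (-0.46), and LDHA (-0.22) and PKM (-0.03) did not pass. On the higher side, ARRDC4, an arrestin that rises with glucose, read 8.03, 8.22 and 8.62 against 5.99, 6.07 and 6.02 (2.26 ± 0.13), and PC, pyruvate carboxylase, differed by 1.43. SLC2A3 read 10.33, 10.45 and 11.64 against 12.54, 12.58 and 12.68 (-1.79 ± 0.35), and -2.21 without both microsystem arrays numbered 3.

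Cholesterol synthesis moved the other way. Of 19 tested members, 18 were higher in the microsystem under the drug, where 22.6% of all genes were, none was lower, and the median was 1.34. In control cells 17 were higher (background 26.5%), with a median of 1.14. ACAT2, which condenses acetyl-CoA at the entry of the pathway, read 10.64, 10.49 and 10.31 in the microsystem and 8.20, 8.54 and 8.48 in Petri dishes (2.07 ± 0.11, adjusted p = 6.89e-08). HMGCS1, the synthase of the next step, read 10.44, 10.63 and 10.37 against 8.47, 8.50 and 8.56 (1.97 ± 0.11). NSDHL, a sterol dehydrogenase, read 9.39, 9.34 and 9.09 against 7.34, 7.64 and 7.48 (1.79 ± 0.10). The groups stayed over 1 log2 unit apart in all 3. SREBF2, which encodes SREBP2 itself, differed by 0.21 and did not pass. DHCR7, the last enzyme of the pathway, differed by 0.80 ± 0.09 under the drug and by 0.22 in controls (adjusted p = 0.0563 there). The test of the difference gave an adjusted p of 0.179. It was 0.042 with the replicate number as a random block within each culture and 0.0422 with array weights.

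Fatty acid and triglyceride synthesis shared this direction, with 15 of 22 tested members higher and 3 lower (median 0.66). GPAM, the first acyltransferase of triglyceride assembly, read 9.70, 10.08 and 10.23 against 7.66, 8.04 and 7.62 (2.23 ± 0.20). PNPLA3, a lipid droplet acylglycerol hydrolase, read 9.18, 9.21 and 8.58 against 7.03, 7.32 and 6.99 (1.88 ± 0.16), and FASN, fatty acid synthase, read 11.09, 11.03 and 10.47 against 9.49, 9.53 and 9.49 (1.36 ± 0.15). ACSL5, an acyl-CoA synthetase, was the strongest exception at -1.42. Fatty acid oxidation was also mostly higher, with 15 of 26 members higher and 3 lower (median 0.25). ETFDH, which passes electrons from acyl-CoA dehydrogenases to ubiquinone, read 8.11, 8.11 and 8.08 against 6.71, 6.50 and 6.37 (1.58 ± 0.12). ANGPTL4, an inhibitor of lipoprotein lipase that also counts in the hypoxia list, was lower at -1.86 ± 0.15.

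Lipoprotein genes were mainly lower, with 10 of 17 tested members lower, 1 higher and a median of -0.46. APOL1 read 7.54, 7.63 and 8.29 in the microsystem and 9.63, 9.53 and 9.53 in Petri dishes (-1.74 ± 0.22). CETP, which exchanges cholesteryl esters between lipoproteins, read 5.29, 5.39 and 5.50 against 6.58, 6.55 and 6.83 (-1.26 ± 0.13). APOA4 was the only member called higher (0.36 ± 0.08). APOA1 (-0.24) and APOB (0.31), the main structural apolipoproteins, did not pass.

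Glutathione and NRF2 target genes were higher for 21 of 24 tested members and lower for none, with a median of 0.88 (control 0.83, also 21 higher). GCLM, the modifier subunit of the rate-limiting enzyme of glutathione synthesis, read 8.48, 8.27 and 8.78 in the microsystem and 6.49, 6.40 and 6.42 in Petri dishes (2.08 ± 0.12, 4.22-fold, adjusted p = 8.66e-08). GCLC, the catalytic subunit of that enzyme, differed by 0.10 and did not pass. NQO1, the quinone reductase, read 12.26, 12.15 and 12.07 against 10.82, 10.52 and 10.61 (1.51 ± 0.12), and HMOX1, heme oxygenase 1, read 10.40, 9.93 and 10.42 against 8.32, 8.23 and 8.28 (1.98 ± 0.12). EPHX1, the microsomal epoxide hydrolase, differed by 1.74 ± 0.20. The 250 bases before the RefSeq start of GCLM (GRCh38.p14, chr1:93909431-93909680, minus strand) are shown with the antioxidant response core TGACNNNGC in capitals, searched on both strands.
GCLM promoter: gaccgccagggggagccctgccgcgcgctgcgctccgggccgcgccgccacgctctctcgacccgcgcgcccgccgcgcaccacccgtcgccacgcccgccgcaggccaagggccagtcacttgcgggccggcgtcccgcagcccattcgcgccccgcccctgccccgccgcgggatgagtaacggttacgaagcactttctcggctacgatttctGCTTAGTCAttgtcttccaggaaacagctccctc
It held 1 match. The 3 motifs were searched separately, so a base can belong to matches of more than one. Across the list, 18 of the 24 genes had at least 1 window, and 8 of their 26 windows (30.8%) held the core, where 10.9% of all windows and 12.1% of the windows of tested genes did.

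The aryl hydrocarbon receptor battery of 8 tested genes was split, with 4 higher and 3 lower. The enzymes CYP1A1, ALDH3A1 and NQO1 were higher, whereas AHR, the receptor, read 9.03, 9.08 and 9.32 in the microsystem and 9.98, 10.06 and 10.12 in Petri dishes (-0.91 ± 0.09), and ARNT, its partner, differed by -0.53. TIPARP and NFE2L2, the remaining members, fell on opposite sides, and CYP1A2 (0.31) did not pass. NQO1 counts in the glutathione and NRF2 list as well. Of the list's 10 windows, 4 (40%) held GCGTG, about the share of the windows of tested genes (42.5%).

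Among cytochromes P450 of drug metabolism, 10 of 16 tested members were higher and 1 was lower. CYP3A4, the main drug oxidase of adult liver, read 5.59, 5.55 and 4.88 in the microsystem and 3.19, 3.37 and 3.62 in Petri dishes, the latter all under the 40th percentile (1.94 ± 0.19). Its control Petri arrays, at 2.67, 3.09 and 2.91, were under it as well. The gene thus entered the test through microsystem arrays alone, and its difference is given as a description. CYP3A genes are similar enough in sequence for probes to share signal, so the split between CYP3A4, CYP3A5 and CYP3A43 is uncertain. CYP2E1, which oxidises acetaminophen to its quinone imine, read 4.76, 4.90 and 4.85 against 4.74, 4.85 and 4.83 (0.03 ± 0.08, adjusted p = 0.791), and both groups lay close to the 40th percentile. CYP2S1 was the only member called lower (-0.93 ± 0.10). Among reductases, dehydrogenases and esterases 12 of 22 were higher and 4 lower, with ALDH1A1 at 1.70 ± 0.10 and AKR1C2, one of several near-identical AKR1C genes and so uncertain, at 1.42 ± 0.12. Conjugation enzymes were higher for 12 of 21 and lower for 2, led by MGST1, a membrane-bound glutathione transferase, which read 9.12, 8.82 and 9.29 against 6.94, 7.13 and 7.23 (1.98 ± 0.11). SLC51A, a subunit of the bile salt exporter on the blood side of hepatocytes, had the most negative difference of 18 tested transporters (-2.03 ± 0.17), while 8 transporters were higher, ABCC3 at 1.21 and ABCG2 at 1.27 among them.

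**Figure D3:**
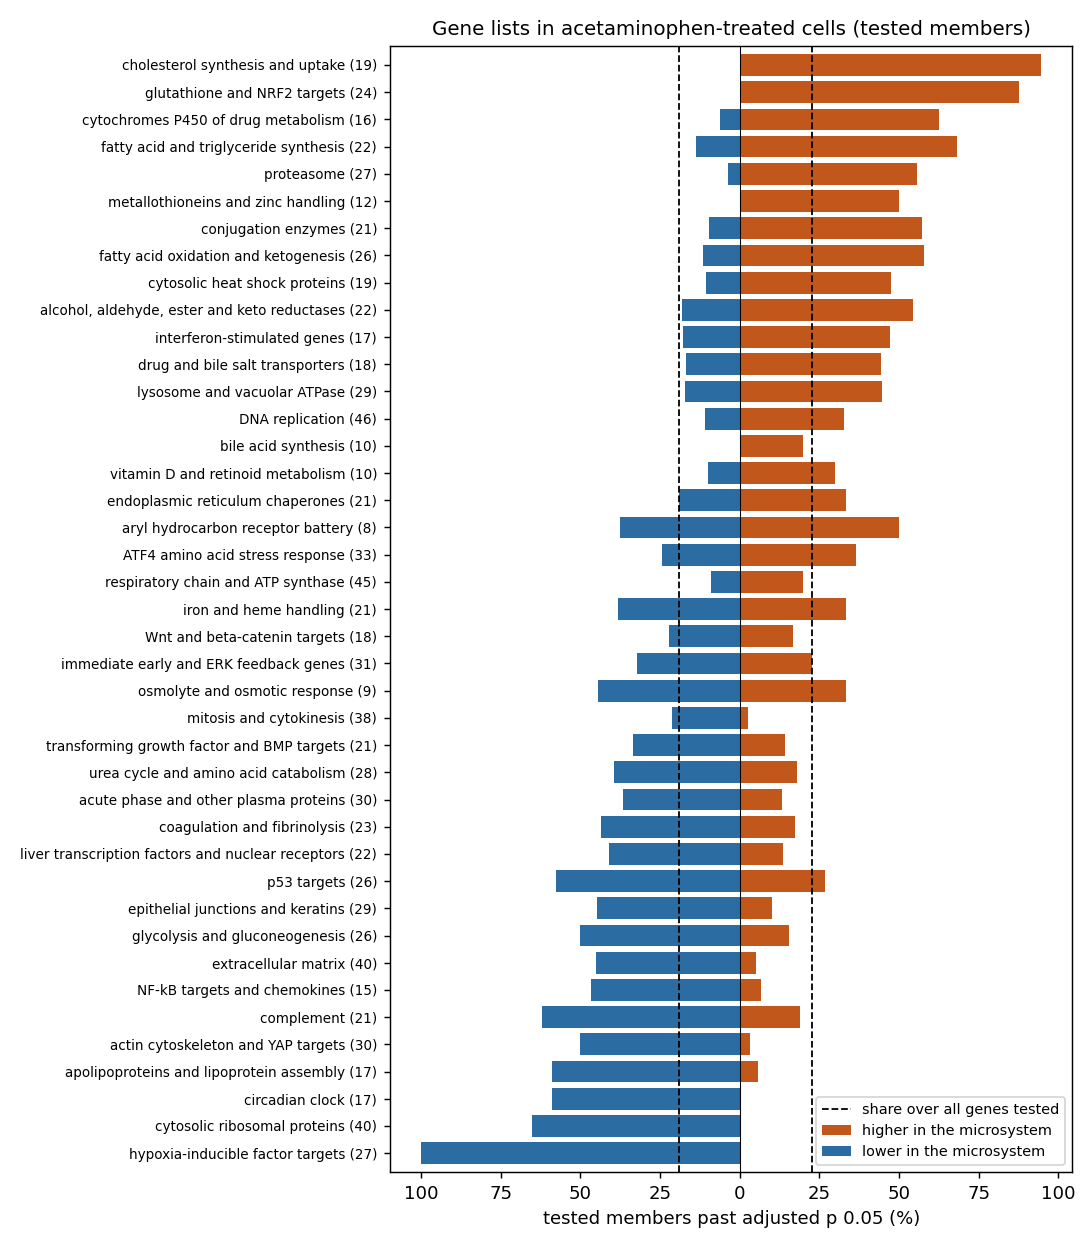
Share of tested members (number in parentheses) of each of 41 gene lists that were higher (to the right) or lower (to the left) in the microsystem in treated cells at an adjusted p under 0.05; dashed lines mark the shares over all 13199 genes, 22.6% and 18.9%. Hypoxia-inducible factor targets reach 100% on the left, and cholesterol genes reach 94.7% on the right.

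p53 targets were mostly lower under the drug, with 15 of 26 tested members lower and 7 higher (median -0.39). Over all genes tested 18.9% were lower and 22.6% higher. In controls 8 members were lower and 8 higher (median 0.02), where 18.3% of all genes were lower and 26.5% higher. PPM1D, a phosphatase that ends the p53 response, read 8.84, 8.79 and 8.78 in the microsystem and 9.37, 9.80 and 9.82 in Petri dishes (-0.86 ± 0.12), against -0.43 in controls. PLK2, a polo-like kinase, read 5.66, 5.83 and 5.63 against 6.86, 6.44 and 6.62 (-0.94 ± 0.18, and -0.39 in controls). CDKN1A, the cell cycle inhibitor p21, went the other way at 9.06, 9.12 and 8.83 against 8.56, 8.58 and 8.57 (0.43 ± 0.10). TIGAR, which lowers fructose bisphosphate, was the highest at 0.89 ± 0.10 (1.47 in controls). The median of the members' differences between the culture effects was -0.32, against -0.025 over all genes and -0.30 for the DNA replication genes below. None of the 26 passed the test of the difference in the main fit. TP53I3 (-0.79, limma adjusted p = 0.0776) passed with the replicate number as a random block within each culture (0.0175) and with array weights (0.00999). It passed in these 2 alternatives only, and its limma adjusted p was 0.253 without Petri treated array 3. TIGAR passed with array weights (0.0422).

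Proliferation genes gave a mixed picture. In control cells 25 of 46 DNA replication genes were higher and 2 lower (median 0.39). The median of their differences between the culture effects was -0.30, near that of the p53 targets, and none passed that test in the main fit. Under the drug, DNA replication genes were higher for 15 of 46 and lower for 5 (median 0.10). CDC6, which loads the replicative helicase, differed by 0.95 ± 0.19 and CDT1, its partner in loading, by -1.08 ± 0.13. The 15 became 8 without microsystem treated array 3 or Petri treated array 3, and 9 without Petri treated array 1. Mitotic genes were called higher for 1 of 38 (2.63%, against 22.6% of all genes) and lower for 8 (21.1%, against 18.9%), the 8 becoming 5 to 12 when single arrays were left out (5 without microsystem treated array 2), and MKI67, the usual marker of cycling cells, read 9.23, 9.41 and 9.39 against 9.40, 9.33 and 9.22 (0.03 ± 0.11, adjusted p = 0.874). Cytosolic ribosomal protein genes were lower for 26 of 40 and higher for none (median -0.27), by small amounts such as RPL10A at -0.46 ± 0.09. That count fell to 11 without microsystem treated array 2 and to 14 without Petri treated array 2 or 3, and processed pseudogenes of these genes can share their probes. Proteasome subunits were higher for 15 of 27 and lower for 1 (median 0.29), led by PSMC2 at 0.79 ± 0.11.

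Secreted liver proteins were divided. ALB, albumin, read 13.12, 13.04 and 12.97 in the microsystem and 12.87, 12.83 and 12.74 in Petri dishes (0.23 ± 0.08, adjusted p = 0.0358, and 0.129 without Petri treated array 3), near the top of the array's range. AFP, the fetal counterpart, read 12.56, 12.44 and 12.33 against 12.34, 12.03 and 12.02 and did not pass (0.31 ± 0.13, adjusted p = 0.0731). AHSG, fetuin A, was lower, at 11.28, 11.33 and 11.24 against 12.74, 12.72 and 12.77 (-1.46 ± 0.07). Complement genes were lower for 13 of 21 and higher for 4 (median -0.42), with C5 at -1.81 ± 0.28 and the membrane inhibitor CD55 at -1.22 ± 0.13. Coagulation and fibrinolysis genes were lower for 10 of 23 and higher for 4, from SERPIND1, heparin cofactor II, at -1.62 ± 0.11 to F11, factor XI, at 1.58 ± 0.14. Of 30 acute phase and other plasma proteins 11 were lower and 4 higher, and CP, the copper oxidase ceruloplasmin, read 9.86, 10.02 and 10.48 against 11.91, 11.70 and 11.66 (-1.64 ± 0.16).

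Cytoskeletal, matrix and clock genes were lower more often than the background. Of 30 actin and YAP target genes, 15 were lower and 1 higher (median -0.30). ANKRD1, a YAP target, read 7.48, 7.96 and 9.16 in the microsystem and 10.33, 10.10 and 10.22 in Petri dishes (-2.01 ± 0.48, and -2.49 without both microsystem arrays numbered 3), and AXL, a receptor kinase, read 7.28, 7.27 and 7.87 against 9.07, 8.96 and 9.22 (-1.61 ± 0.15). CCN2, a matricellular growth factor and YAP target, differed by -1.23 ± 0.22. Extracellular matrix genes were lower for 18 of 40 and higher for 2, SPP1 being one of these 2. Clock genes were lower for 10 of 17 and higher for none (median -0.38). NFIL3, a repressor of clock output genes, read 7.64, 7.82 and 8.08 against 9.83, 10.16 and 10.16 (-2.20 ± 0.14), RORA differed by -1.77 ± 0.22 and PER2 by -1.27 ± 0.10, whereas the core activators CLOCK (0.18) and BMAL1 (-0.06) did not pass. Epithelial junction and keratin genes were lower for 13 of 29, CDH1, E-cadherin, at -1.14 ± 0.21 among them.

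Without the drug, 5926 genes (44.9%) differed between the cultures, of which 3504 were higher in the microsystem. Both comparisons called 4378 genes in the same direction and 7 in opposite directions, so that the shared calls made up 80.2% of those under the drug and 74% of those without it. Over all 13199 genes the differences correlated with r = 0.91 (Spearman's rho 0.88), and the slope of the treated on the control difference was 0.88. The comparisons share no array, but genes are not independent replicates.

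**Figure D4:**
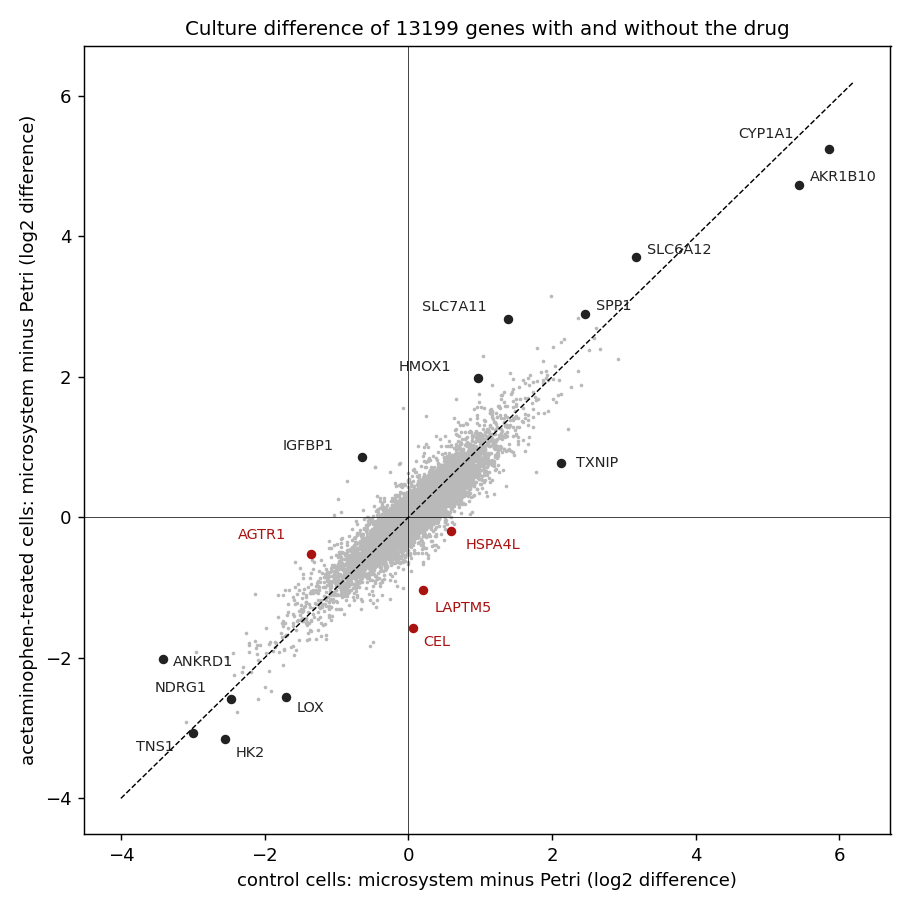
Culture difference of each of 13199 genes (microsystem minus Petri dishes, log2) in control cells (x axis) and in acetaminophen-treated cells (y axis), with the line of equal differences dashed. The 4 genes past the test of the difference (CEL, LAPTM5, AGTR1 and HSPA4L) are red; CYP1A1 and AKR1B10 sit at the upper right, higher in the microsystem with and without the drug.

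Of the genes that differed between the cultures under the drug, 1082 (8.2% of genes tested) were not called without it, 435 of them higher and 647 lower in the microsystem. Most leaned the same way without the drug, since 979 of the 1082 (90.5%) had the same sign in controls. Their median size was 0.35 under the drug and 0.17 in controls along the same sign. Such a gene is not shown to differ between the conditions unless the difference of the culture effects is itself tested. That test called 4 genes of 13199 (0.0303%), 1 with a positive difference (0.00758%) and 3 with a negative one (0.0227%), with 970 (7.35%) at an unadjusted p under 0.05, and 2 of the 1082 were among the 4. The count of 4 ranged from 1 to 13 when single arrays were left out, was 11 without both microsystem arrays numbered 3, and was 0 against a minimum of 1.5-fold. With the replicate number as a random block within each culture, it was 38, the 4 among them. Between control and treated arrays of the same number, deviations from the group means correlated with r of 0.48, 0.19 and 0.31 in Petri dishes and 0.11, 0.07 and 0.60 in the microsystem. It was 1 without microsystem control array 2, microsystem treated array 1, Petri control array 2 or 3 or Petri treated array 2, was 2 without Petri treated array 1 or 3, and was 12 and 13 without microsystem control arrays 1 and 3.

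CEL, the bile salt-activated lipase, differed between the cultures under the drug and not measurably without it. Its treated arrays read 6.71, 6.95 and 6.40 in the microsystem and 8.18, 8.27 and 8.38 in Petri dishes (-1.58 ± 0.13, 3-fold lower, adjusted p = 1.34e-06). Without the drug they read 5.82, 6.14 and 5.81 against 5.87, 5.76 and 5.95, groups that overlap (0.06 ± 0.13, adjusted p = 0.73). The difference of the 2 culture effects was -1.65 ± 0.19 (adjusted p = 0.00762), and it kept an adjusted p under 0.05 when any single array was left out, at most 0.0476. All 6 treated arrays stood above all 6 control arrays, with the Petri arrays highest. CELP, a pseudogene that resembles CEL, leaned the same way (-0.51 under the drug, 0.08 without), so signal shared between the 2 probe sets is possible and the split between them is uncertain.

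LAPTM5, a lysosomal membrane protein best known from blood cells, read 4.65, 4.70 and 5.17 in the treated microsystem and 5.89, 5.75 and 6.01 in treated Petri dishes (-1.04 ± 0.13, adjusted p = 3.59e-05). Without the drug it lay between 4.52 and 4.95 in both cultures, around the 40th percentile of those arrays, which was 4.834 to 4.898. Treated microsystem arrays 1 and 2 lay under theirs, which was 4.805 and 4.817. Treated Petri arrays thus stood apart from the other 9, and by themselves met the filter's 3 arrays. The test below sets them against mostly dim values, so it is given as a description. The difference of the culture effects was -1.25 ± 0.18 (adjusted p = 0.0369), and the call was lost when any of 9 single arrays was left out (adjusted p up to 0.167, without Petri control array 2), all except microsystem control arrays 1 and 3 and microsystem treated array 3.

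The other 2 genes past the test had a culture difference that was smaller in size under the drug, and for HSPA4L its sign also turned. AGTR1, the angiotensin II receptor, read 5.60, 5.55 and 5.40 in the control microsystem and 6.80, 6.97 and 6.87 in control Petri dishes (-1.36 ± 0.09). Under the drug it read 5.67, 5.62 and 5.70 against 6.12, 6.09 and 6.34 (-0.52 ± 0.09, adjusted p = 0.000405), so the groups still did not overlap, and the difference of the effects was 0.84 ± 0.12 (adjusted p = 0.0369). HSPA4L, a relative of the HSP110 chaperones, read 8.35, 8.45 and 8.34 against 7.86, 7.66 and 7.81 in controls (0.60 ± 0.08). With the drug HSPA4L read 8.46, 8.51 and 8.66 against 8.70, 8.74 and 8.75, groups that did not overlap either, in the reverse direction (-0.19 ± 0.08, adjusted p = 0.0808). This treated difference did not pass in the main fit and passed in 3 alternatives. Without both microsystem arrays numbered 3 it was -0.25 (limma adjusted p = 0.0402). Without microsystem treated array 1 its limma adjusted p was 0.232. Its difference of the effects was -0.79 ± 0.11 (adjusted p = 0.0369). Both calls were lost in 8 leave-outs of a single array, with adjusted p up to 0.167 without Petri control array 2. For AGTR1 these were microsystem control array 2, every microsystem treated array, Petri control arrays 2 and 3 and Petri treated arrays 1 and 2 (0.0627 to 0.167). For HSPA4L they were microsystem control array 2, microsystem treated arrays 1 and 2, Petri control arrays 2 and 3 and every Petri treated array (0.0878 to 0.167). Without both microsystem arrays numbered 3 the AGTR1 call was also lost (limma adjusted p = 0.0721), and that of HSPA4L was kept (0.0224).

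**Figure D5:**
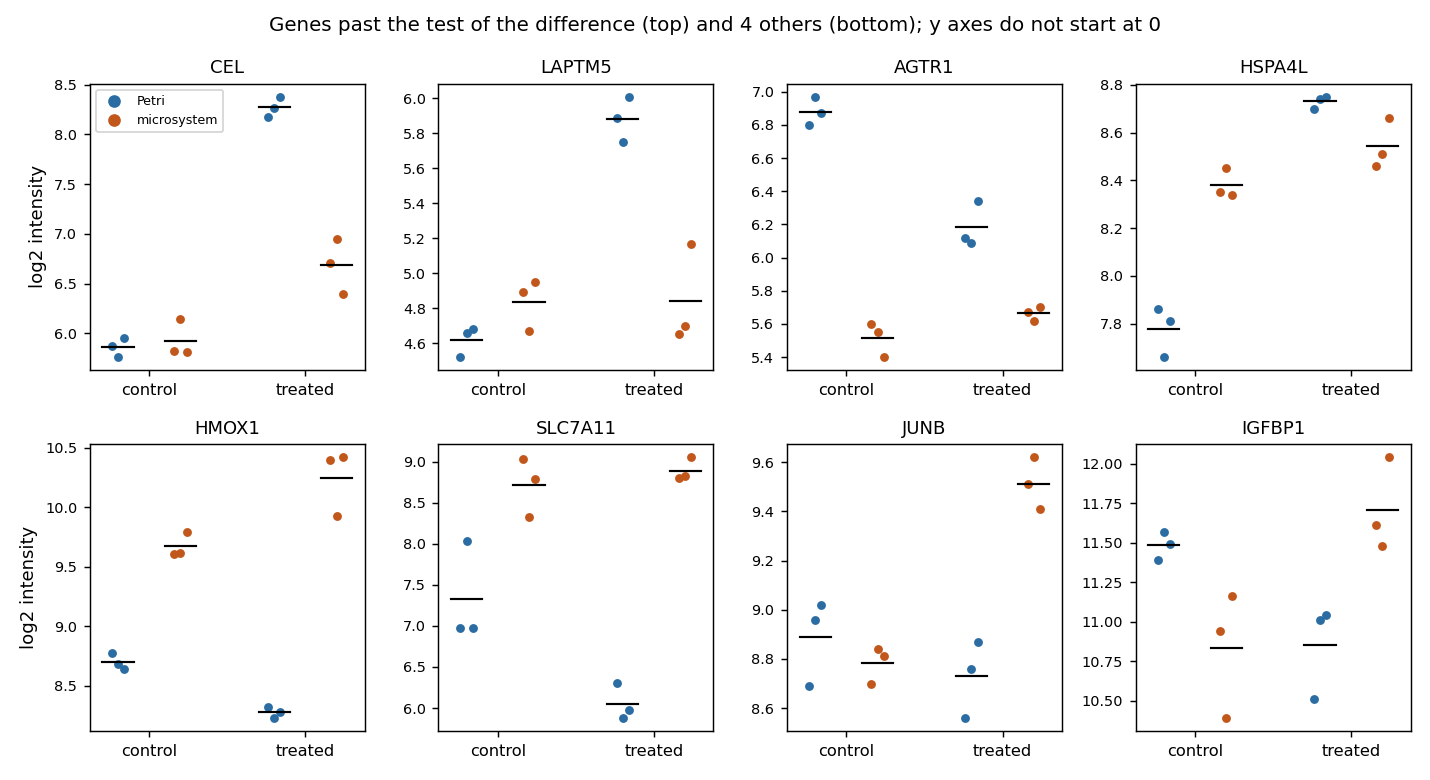
Log2 intensities (y axes, not starting at 0) of 8 genes in the 4 groups, 1 dot per array with a black bar at the mean of 3, Petri dishes in blue and the microsystem in orange. The top row holds the 4 genes past the test of the difference; the bottom row holds HMOX1, SLC7A11, JUNB and IGFBP1, which did not pass it.

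Several stress and growth genes did not pass, some of them narrowly, and those named here were chosen after their values were seen. With the replicate number as a random block within each culture, HMOX1 (limma adjusted p = 0.0106), JUNB (0.0106), IGFBP1 (0.0118) and NOTCH1 (0.0175) did pass, so whether they are called depends on that choice. In that order, they passed in 7, 6, 4 and 3 alternatives to the main fit. When single arrays were left out, their limma adjusted p rose to as much as 0.184, 0.225, 0.253 and 0.253. HMOX1 differed between cultures by 1.98 ± 0.12 under the drug and by 0.97 ± 0.12 without it, having read 9.61, 9.62 and 9.79 in the control microsystem and 8.78, 8.68 and 8.64 in control Petri dishes (difference of the effects 1.01 ± 0.16, adjusted p = 0.0565). JUNB, a component of the AP-1 transcription factor, read 9.51, 9.62 and 9.41 against 8.56, 8.76 and 8.87 under the drug (0.78 ± 0.11) and differed by -0.11 without it (0.89 ± 0.15, adjusted p = 0.059). IGFBP1, a secreted carrier of insulin-like growth factors, was called in opposite directions, with 11.61, 11.48 and 12.04 against 10.51, 11.01 and 11.04 under the drug (0.86 ± 0.19) and 10.94, 10.39 and 11.16 against 11.39, 11.57 and 11.49 without it (-0.65 ± 0.19). Its difference of the effects was 1.51 ± 0.28 with an adjusted p of 0.0776. SLC7A11 spread more widely, since Petri control array 2 read 8.03 and the other 2 read 6.97 and 6.98. Its difference of the effects was 1.44 ± 0.35 (adjusted p = 0.262), and it passed with array weights (limma adjusted p = 0.0362). PSTPIP2, an adaptor of the actin cytoskeleton, read 5.76, 6.18 and 6.12 in treated Petri dishes and between 3.61 and 4.52 on the other 9 arrays. Those 9 values lie below the 40th percentile of their arrays, so the gene entered the test through the treated Petri group alone, and its values are given as a description.

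Among the 1082 genes, 107 also differed by at least 1.5-fold under the drug, 56 higher and 51 lower. Of these 107, 96 had the same sign in controls and 57 had an unadjusted p under 0.05 for the difference of the effects. Over all genes tested 7.35% had such a p. The 107 were chosen for a large difference under the drug that was not called in controls. That choice favours a difference of the effects, so the 57 are a description. NOTCH1, a receptor of cell fate signalling, read 6.46, 6.24 and 6.52 in the treated microsystem and 7.31, 7.48 and 7.44 in treated Petri dishes (-1.01 ± 0.12), and differed by -0.08 in controls (adjusted p = 0.0776 for the difference of the effects). ARG2, the mitochondrial arginase, read 8.45, 8.31 and 7.91 against 9.34, 9.30 and 9.52 (-1.16 ± 0.18) and differed by -0.26 in controls (0.378). CPB2, the fibrinolysis inhibitor carboxypeptidase B2, read 7.81, 7.71 and 7.33 against 8.71, 8.57 and 8.50 (-0.98 ± 0.17) and differed by -0.16 in controls (0.421). On the higher side, LTBP2, a matrix protein that binds fibrillin, read 6.84, 7.52 and 7.51 against 6.33, 6.70 and 6.56 (0.76 ± 0.16) and differed by -0.13 in controls (0.316). H2BC14, a histone gene with near-identical family members and so uncertain, differed by 1.56 ± 0.29 under the drug and by -0.07 in controls (0.295). The values in parentheses after each control difference are limma's adjusted p for the difference of the effects, and none of these 5 passed it in the main fit. H2BC14 passed with array weights (limma adjusted p = 0.0422), and NOTCH1 with the block named above.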

How the data were processed

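The labels' culture and treatment fields put the 12 arrays into 4 groups of 3. Per the submitters' processing notes, the authors ran robust multi-array average (RMA) in Affymetrix Expression Console, and what they deposited is 1 log2 value per probe set and array. RMA subtracts background, equalises the arrays' distributions and summarises probes, which compresses differences of dim probe sets. No version, dose or genome build was found in these sources. The values were used without further normalization, and the number of arrays limits the precision.

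Of 32321 probe sets, 19158 had 1 gene symbol in the platform annotation, 1388 had several and 11775 had none here. These cover 18404 genes. For the 637 genes with more than 1, the brightest on average was taken. A gene was kept where at least 3 arrays exceeded their own 40th percentile, which left 13199 and removed 5205. Group means of all 12 arrays were fitted with limma (version 3.58.1, in R 4.3.3) and moderated by eBayes, with 8 residual and 5.35 prior degrees of freedom. Contrasts took microsystem minus Petri dishes in treated cells, the same in control cells, and the first minus the second. Tests were two-sided, and Benjamini-Hochberg adjustment ran over the 13199 genes with a threshold of 0.05. "Higher", "lower" and "called" refer to genes past it. Figures were drawn with matplotlib 3.10.9 under Python 3.11.15.

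The comparison, the 41 gene lists (1170 symbols, 927 tested) and the rules were chosen with earlier results of these data known, so a list's counts are a description. The text names some of the 14 largest rises and 14 largest falls without overlap between the treated groups, up to 8 genes of each class of the difference, up to 4 members per list with the largest called difference, and ALB, AFP, CYP1A1, CYP2E1, CYP3A4, HMOX1, NQO1, GCLM, CDKN1A, MKI67 and CYP24A1 whatever their values (CYP24A1, the vitamin D hydroxylase, differed by 0.52 and did not pass). Other genes were named after their values were seen. Promoter windows are RefSeq's (GRCh38.p14).

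Replicate numbers were checked by correlating deviations from the group means across genes. Between cultures r was 0.14, -0.14 and 0.13 in treated and 0.18, -0.03 and 0.13 in control cells, so numbers do not pair the cultures. Within Petri dishes r was 0.48, 0.19 and 0.31 between control and treated arrays, and within the microsystem 0.11, 0.07 and 0.60.

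On simulated data with 50 changed genes per fold among 13199, the fit recovered 78% of 1.5-fold and 96% of 2-fold differences in treated cells and called 4 unchanged genes. For the difference of the effects it recovered 42% and 90% and called 9. The simulated errors were independent between arrays and few genes were changed, whereas 41.4% of genes were called in treated cells here. These figures therefore need not hold for the present arrays. The results were recomputed with quantile normalization, equal medians, a replicate block, the 6 arrays alone, other filters, other probe set rules, an intensity trend, array weights, a 1.5-fold minimum and leaving out arrays. One label, that of the third treated Petri array, ends in an unexplained asterisk, and the array was kept.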

Additional observations from a re-analysis of the deposited data

Results flagged for a closer look

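These 4 genes had a culture difference that was not the same with and without acetaminophen by the test of the difference itself (limma, adjusted over 13199 genes, n = 3 arrays a group). CEL differed by -1.65 (log2, treated minus control culture difference, adjusted p = 0.00762), all 3 treated arrays of each culture lying on their own side. LAPTM5 differed by -1.25 (adjusted p = 0.0369), with treated Petri arrays above the other 9. Those treated Petri arrays by themselves met the filter, against mostly dim values, so the test of LAPTM5 is given as a description. AGTR1 differed by 0.84 and HSPA4L by -0.79 (adjusted p = 0.0369 for each), both with a culture difference that was smaller in size under the drug. That of AGTR1 kept its sign. That of HSPA4L turned from positive to negative, but the negative difference did not pass (-0.19, limma adjusted p = 0.0808). CEL was also the gene of the 4 that kept its call whichever single array was left out.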

How the results depend on the processing

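The count of culture differences under the drug, 5467, lay between 4922 and 6537 under the alternatives of normalization, filter, probe set, trend and weights, with 4703 or more genes shared with the reported set, and between 4404 and 5653 when single arrays were left out. Against a minimum of 1.5-fold it was 500 (276 higher, 224 lower). In control cells 5926 became 571 under that minimum and 4902 to 6029 when single arrays were left out. No scaling moved the share of higher calls under the drug by over 10 percentage points (54.5% as reported, 52% after quantile normalization).

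The 4 calls of the difference of the effects became 18 with a replicate block, 38 with a replicate block within each culture, 7 after quantile normalization, 10 with an intensity trend, 54 with array weights, 0 with the 1.5-fold minimum (20 genes at an unadjusted p under 0.05 in limma), 1 to 13 when single arrays were left out and 11 without both microsystem arrays numbered 3. The cause was not tested. All 4 genes were among the 18 and the 38, and the 60th percentile filter removes LAPTM5. In treated cells the replicate block gave 5820 calls, and 5453 within each culture. Replicate numbers did not pair the cultures. Between same-numbered control and treated arrays, r was 0.48, 0.19 and 0.31 in Petri dishes. In the microsystem it was 0.11, 0.07 and 0.60, where only number 3 exceeded the 0.18 reached between cultures. The block within each culture takes up this pairing, and which model holds was not tested. Of 276 named genes 271 were past the threshold, 238 of which kept the call in every alternative that tested them but the 1.5-fold minimum, and 91 of these also passed that minimum. RPL13 turned to 0.53 with the second probe set, and C6orf15 to -0.12. Probe sets near the arrays' 40th percentile have compressed differences, and 3 arrays a group limit every p.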

Other observations

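Interferon-stimulated genes were higher in the microsystem under the drug for 8 of 17 tested members (47.1%) and lower for 3 (17.6%). Over all genes tested these shares were 22.6% and 18.9%, and without the drug 26.5% and 18.3%. In control cells 8 of the 17 were higher and 4 lower. RIGI, a sensor of viral RNA, read 6.73, 7.07 and 6.36 in the treated microsystem and 5.02, 5.19 and 5.34 in treated Petri dishes (1.54 ± 0.27, n = 3 arrays a group), and IRF1, a transcription factor of the interferon response, differed by 1.09 ± 0.17. ISG15, a ubiquitin-like protein of that response, was lower (-0.29), so the list did not move one way. Genes of the TGF-beta and BMP pathway were lower for 7 of 21 (33.3%) and higher for 3 (14.3%), and in controls for 12 and 0. SMAD9, a signal transducer of BMP receptors, read 6.61, 7.03 and 6.66 against 8.32, 8.13 and 8.38 (-1.51 ± 0.12). HAMP, the iron hormone hepcidin and a BMP target, read 6.67, 6.62 and 6.53 against 7.63, 7.81 and 7.63 (-1.09 ± 0.17). HAMP differed by -2.13 in control cells, and the test of the difference gave an adjusted p of 0.199. This limma p was 0.048 with a replicate block within each culture and 0.0295 with array weights.

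Of the 21 tested genes of iron and heme handling 7 were higher (33.3%) and 8 lower (38.1%), and in controls also 7 and 8. FECH, which inserts iron into heme, read 8.23, 8.11 and 8.45 against 6.49, 6.79 and 6.49 (1.67 ± 0.12), and HAMP is among the lower ones. Chaperones of the endoplasmic reticulum were higher for 7 of 21 (33.3%) and lower for 4 (19%, near the 18.9% of all genes), with SDF2L1 at 0.70 ± 0.10. In controls 11 of them were higher and 5 lower. Cytosolic heat shock genes were higher for 9 of 19 (47.4%) and lower for 2 (10.5%), and in controls for 10 and 0. CRYAB, a small heat shock protein, read 8.21, 8.69 and 5.53 in the treated microsystem against 5.49, 5.45 and 5.30 (2.06 ± 0.74, adjusted p = 0.038 by limma), array 3 lying near the Petri values. Its difference was 3.04 without both microsystem arrays numbered 3 (adjusted p = 9.43e-05 by limma). The call was lost without microsystem treated array 1 or 2 or any 1 of the treated Petri arrays, with a difference as low as 1.46 and an adjusted p up to 0.165 by limma, both without microsystem treated array 2. KLB, a coreceptor for FGF19, likewise read 9.17, 9.22 and 7.55 against 7.11, 6.96 and 6.90.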
